A study of Homo sapiens with 7 samples.

Results

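The transcripts described here are 10 genes of the Prader-Willi region of human chromosome 15, namely SNRPN, SNURF, SNHG14, PWAR5, PWAR6, PWARSN, IPW, UBE3A, NDN and MAGEL2. They were taken by symbol from a table of raw counts with 59251 rows, all 10 were present, and all 10 passed the filter on low counts that left 26062 tested rows. The members were chosen by gene symbol with their counts in these same DJL1 and CTRL libraries already known. Their differences between the groups are therefore given as a description. A single count of their calls in the fit over all genes stands beside the share of all tested genes, and nothing is read from it.

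The DJL1 group (n = 3) was H9 cells transfected with guide RNA plasmids labelled DJL1, and the CTRL group (n = 4) was H9 cells from the matching transfection labelled CTRL. H9 is an established human embryonic stem cell line, here 1 line held in a naive state in the medium RSeT, and the labels give no further genotype. Cells of both groups were under 10 nM DZNep, an inhibitor of histone methylation, and 5 nM TSA, an inhibitor of histone deacetylases, with the survival cocktail CEPT for the initial 16 h, and RNA was taken at 48 h. By its title the study is about LINE1 elements next to ribosomal DNA repeats, and no library without the 2 inhibitors was analysed here.

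Genomic imprinting marks a gene by the parent it came from, so that the copy from 1 parent is active and the other is silent. In the Prader-Willi region the paternal copies of SNRPN, SNURF, NDN, MAGEL2 and the long host transcript SNHG14 are the active ones in most tissues, under an imprinting centre at the start of SNRPN and SNURF, and their loss causes Prader-Willi syndrome. UBE3A, at the far end of the region, is active from the maternal copy in neurons, where SNHG14 runs antisense to it, and from both copies in most other cells. Counts per gene do not separate the parental copies, so the values below are sums over both.

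Positions are those of GRCh38.p14 in RefSeq, all on chromosome 15. On the minus strand lie the intronless genes MAGEL2 at 23643549 to 23647867 and NDN at 23685400 to 23687305, and, at the other end, UBE3A at 25333728 to 25439056. Between them, on the plus strand, SNHG14 spans 24823608 to 25419462 and encloses 6 other members, of which 5 are on the same strand and PWARSN has no strand in the table used. These are SNRPN (24823637 to 24978723), SNURF (24954987 to 24978723), PWARSN (24981994 to 24983790), PWAR5 (24984860 to 24988232), PWAR6 (25031873 to 25036490) and IPW (25116545 to 25122476). RefSeq gives 5 members as protein coding (SNRPN, SNURF, UBE3A, NDN and MAGEL2) and 5 as long noncoding RNA.

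The starts of these genes are shown first because SNHG14 and the members inside its span stood lower in DJL1 than in CTRL cells, whereas NDN stood higher and UBE3A overlapped. RefSeq's promoter table held windows for 7 of the 10 members, each 300 bases long with 250 before and 50 after a gene start. Each window is written 5′ to 3′ on the strand of its gene, and capitals mark a match to the NRF1 motif (GCGCA, any base, then GCGC) or the YY1 motif AAGATGGC, both searched on the 2 strands.
NDN (chr15:23687256-23687555, minus strand): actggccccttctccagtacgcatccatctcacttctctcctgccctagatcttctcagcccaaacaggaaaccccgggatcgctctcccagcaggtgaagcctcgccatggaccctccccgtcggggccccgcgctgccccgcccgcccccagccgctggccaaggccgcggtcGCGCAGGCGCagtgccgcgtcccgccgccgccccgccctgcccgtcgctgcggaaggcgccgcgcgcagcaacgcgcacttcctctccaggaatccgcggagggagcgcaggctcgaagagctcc
SNHG14 (chr15:24823358-24823657, plus strand): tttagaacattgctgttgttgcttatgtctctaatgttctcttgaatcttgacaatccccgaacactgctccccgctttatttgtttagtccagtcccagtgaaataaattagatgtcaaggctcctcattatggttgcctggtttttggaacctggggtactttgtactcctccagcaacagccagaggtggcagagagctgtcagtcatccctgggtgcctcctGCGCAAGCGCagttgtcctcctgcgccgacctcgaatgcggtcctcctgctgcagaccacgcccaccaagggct
SNRPN and SNURF (chr15:24954737-24955036, plus strand): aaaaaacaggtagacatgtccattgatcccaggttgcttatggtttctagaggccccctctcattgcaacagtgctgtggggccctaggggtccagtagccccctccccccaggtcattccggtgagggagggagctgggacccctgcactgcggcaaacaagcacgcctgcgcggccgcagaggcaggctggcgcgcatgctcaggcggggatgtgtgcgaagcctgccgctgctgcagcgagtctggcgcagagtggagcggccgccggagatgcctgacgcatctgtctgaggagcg
IPW (chr15:25116295-25116594, plus strand): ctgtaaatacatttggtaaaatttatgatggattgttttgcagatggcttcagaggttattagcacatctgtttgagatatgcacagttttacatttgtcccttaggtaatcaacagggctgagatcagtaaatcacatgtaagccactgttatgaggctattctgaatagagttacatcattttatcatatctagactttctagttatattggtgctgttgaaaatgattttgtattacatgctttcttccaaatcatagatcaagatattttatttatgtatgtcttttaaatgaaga
UBE3A (chr15:25438975-25439274, minus strand): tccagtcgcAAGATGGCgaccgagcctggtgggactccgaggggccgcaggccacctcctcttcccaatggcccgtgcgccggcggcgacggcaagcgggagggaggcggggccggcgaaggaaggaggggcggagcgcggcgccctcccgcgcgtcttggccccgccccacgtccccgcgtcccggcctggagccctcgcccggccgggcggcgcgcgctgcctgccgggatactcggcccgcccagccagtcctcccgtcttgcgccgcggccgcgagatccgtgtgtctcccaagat

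The NRF1 motif occurred in 5.78% and the YY1 motif in 2.89% of all 35116 windows in the table, and no 2 matches overlapped in the windows of the members. Of the printed windows, those of NDN and SNHG14 held an NRF1 match, and that of UBE3A held a YY1 match. The printed IPW window and the MAGEL2 window, which is not printed, held neither motif. The window shared by SNRPN and SNURF held neither motif, whereas the SNRPN window 24956050 to 24956349 held both. Of the other SNRPN windows not printed, 24856321 to 24856620 held an NRF1 match and 24862722 to 24863021 held neither motif. Of the UBE3A windows not printed, 25439007 to 25439306 held a YY1 match and 25438180 to 25438479 held neither motif. A match is a string of letters and does not show a bound site. CpG dinucleotides, the sites of DNA methylation, numbered 44 in the printed UBE3A window, 35 in the NDN window and 18 in the SNRPN and SNURF window. The SNHG14 and MAGEL2 windows held 9 each and the IPW window 0, beside a median of 14 over all windows. DNA methylation was not measured in these libraries.

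SNHG14 also hosts families of C/D box small nucleolar RNAs (snoRNAs), short guide RNAs cut from its introns, of which the SNORD116 family lies in the smallest deletions known in Prader-Willi syndrome. A copy of each of 2 families is shown in GENCODE release 29 sequence on GRCh38, plus strand, because rows of both families were counted. SNORD109A was counted itself, whereas SNORD116-1 had no counts and its family was counted mainly in the cluster row SNORD116@. Capitals mark the C box TGATGA and the D box CTGA.
SNORD109A (chr15:25041974-25042040): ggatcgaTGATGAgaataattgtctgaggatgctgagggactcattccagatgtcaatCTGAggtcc
SNORD116-1 (chr15:25051477-25051571): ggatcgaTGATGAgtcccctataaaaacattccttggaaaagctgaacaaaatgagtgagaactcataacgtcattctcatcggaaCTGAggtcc

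The 7 libraries held 34634882 to 37795742 counts in DJL1 and 62277489 to 76691997 in CTRL. The biological coefficient of variation over genes was 13.8% in DJL1 and 3.46% in CTRL. Depth and spread thus differed with the group and cannot be told apart from it. Of 8 pluripotency markers 7 were called lower in DJL1 by edgeR, beside 25.1% of all tested genes. The summed level of the 8 was 8934 to 9993 CPM in DJL1 and 11080 to 11320 CPM in CTRL. As a percentage of the CTRL level, DJL1 stood at 56.33% for DNMT3B, 63.07% for DPPA4 and 64.7% for TDGF1. It stood at 70.54% for NANOG, 76.35% for SOX2 and 80.9% for L1TD1. POU5F1 averaged 5354 ± 269 CPM in DJL1 and 5324 ± 73.2 CPM in CTRL (SD, n = 3 and 4). POU5F1 was the 1 marker of the list not called, and it stands outside the rule for named genes given below. CPM is the count of a row in every 1000000 counts, with libraries scaled by TMM factors.

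In DJL1 cells SNHG14 and the 6 members inside its span stood lower than in CTRL cells, NDN and MAGEL2 stood higher, and the UBE3A groups overlapped. In edgeR's quasi-likelihood fit, with p adjusted after Benjamini and Hochberg over all tested rows, 7 of the 10 members were called lower in DJL1 beside 25.1% of all tested genes, and 2 were called higher beside 27.0%. The count of members called in either direction was 9, against 52.0% of all tested genes. The groups did not overlap in 7 members, against 53.6% of all tested genes, with DJL1 below CTRL in 5 (26.2%) and above it in 2 (27.4%). Since this contrast was used to choose the members, nothing is read from these counts. The median log2 fold change was -0.58 over the members and 0.01 over all tested genes.

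**Figure D1:**
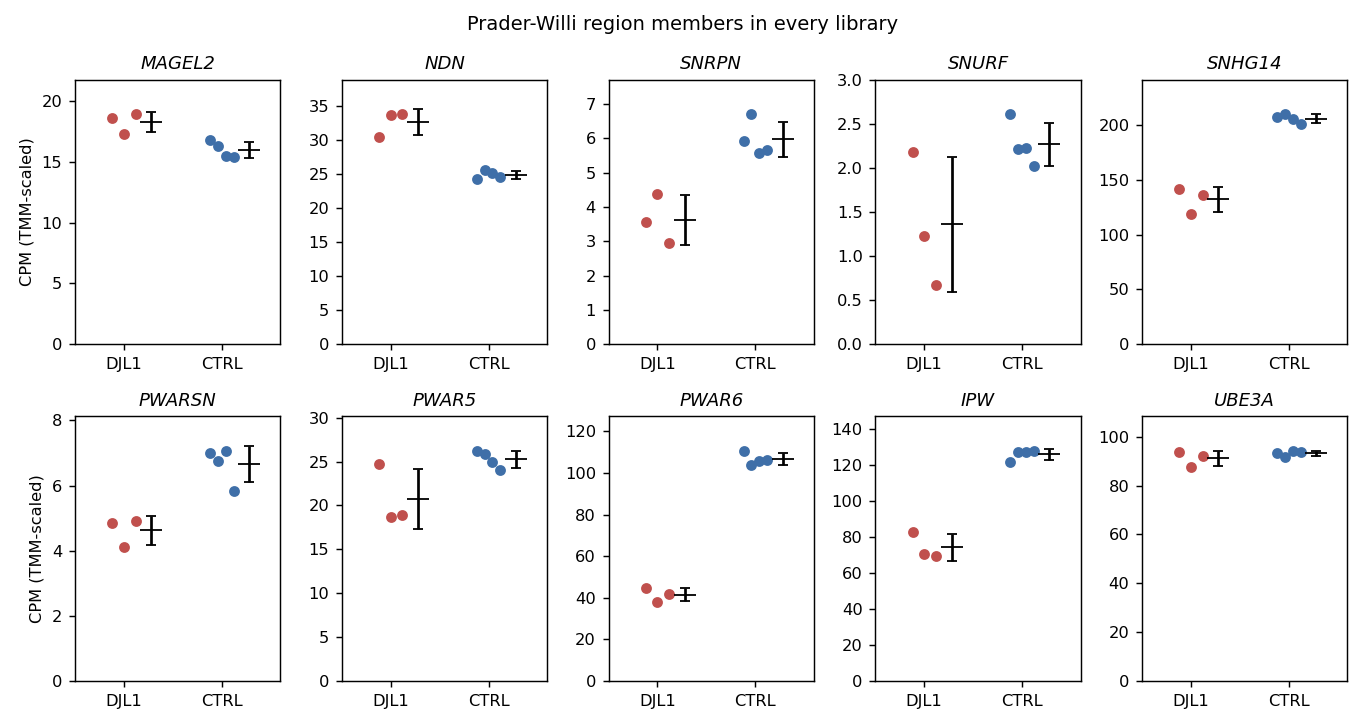
Level of each member in CPM (y axis, starting at 0) in the DJL1 libraries (3 points, left) and the CTRL libraries (4 points, right), with the mean and SD as a black mark beside the points. PWAR6 sits at 38.1 to 44.5 CPM in DJL1 and 104 to 111 CPM in CTRL, while the UBE3A points of the groups overlap.

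SNHG14, the host transcript, stood at 141, 119 and 136 CPM in the DJL1 libraries, against 207, 209.7, 205.5 and 201 CPM in the CTRL libraries. Every DJL1 library lay below every CTRL library. The means were 132 ± 11.5 CPM in DJL1 and 205.7 ± 3.81 CPM in CTRL (SD, n = 3 and 4), a log2 fold change of -0.64 ± 0.05 (SE). In bulk RNA, fewer cells that express a transcript and less of it per cell cannot be told apart, here and in all results that follow.

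SNRPN encodes SmN, a relative of the splicing proteins SmB and SmB′, and SNURF is a short reading frame upstream on the same messenger RNA. SNRPN was counted at 3.58, 4.39 and 2.94 CPM in DJL1 libraries, against 5.94, 6.71, 5.58 and 5.66 CPM in CTRL libraries. The groups did not overlap, and the log2 fold change was -0.72 ± 0.14 (SE). SNURF had 84, 43 and 25 counts in DJL1 libraries, which are 2.19, 1.23 and 0.674 CPM, against 163, 169, 139 and 134 counts in CTRL libraries, which are 2.62, 2.22, 2.24 and 2.03 CPM. DJL1 replicate 1 lay within the CTRL range, so the groups overlapped.

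The SNURF log2 fold change was -0.73 ± 0.28 (SE) and rested on single libraries. It was -1.27 without DJL1 replicate 1 and -0.41 without DJL1 replicate 3. In GENCODE release 29, 69.3% of SNURF exon bases are also SNRPN exon, and 33.6% of SNRPN exon bases lie in exons of other genes. How reads in such bases were assigned is not given in the sources used here, so the split between these 2 rows is uncertain. With both rows summed the log2 fold change was -0.73.

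Downstream of SNRPN lie the noncoding transcripts PWARSN, PWAR5, PWAR6 and IPW, named for the Prader-Willi region in which they were found and of unsettled function. PWAR6 stood furthest apart. It was at 44.5, 38.1 and 41.9 CPM in DJL1 libraries, against 110.6, 103.7, 105.7 and 106.3 CPM in CTRL libraries. All DJL1 libraries lay far below all CTRL libraries, the DJL1 mean was 39.0% of the CTRL mean, and the log2 fold change was -1.36 ± 0.05 (SE).

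IPW (imprinted in Prader-Willi) was at 82.6, 70.5 and 69.1 CPM in DJL1 libraries, against 121 CPM in CTRL replicate 1 and 127 to 128 CPM in the other CTRL libraries. The groups were apart, with a log2 fold change of -0.76 ± 0.06 (SE). PWARSN, in the stretch between SNURF and PWAR5, had 4.85, 4.11 and 4.91 CPM in DJL1 libraries, against 6.996, 6.75, 7.06 and 5.85 CPM in CTRL libraries. Again the groups did not overlap, and the log2 fold change was -0.53 ± 0.12 (SE).

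PWAR5 differed least among the 7. Its levels were 24.7, 18.7 and 18.9 CPM in DJL1 libraries, against 26.2, 25.9, 24.9 and 24.1 CPM in CTRL libraries. DJL1 replicate 1 fell among the CTRL libraries, and the log2 fold change was -0.28 ± 0.09 (SE), or -0.44 without that library.

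Summed over SNHG14 and the 6 members inside it, the level was 304, 256 and 274 CPM in DJL1 libraries, against 481, 482, 478 and 472 CPM in CTRL libraries. The DJL1 mean was 58.1% of the CTRL mean. SNHG14, IPW and PWAR6 supplied most of each sum, so the sum mainly follows these 3 rows.

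To see whether these rows kept their proportions, each count was set against the SNHG14 count of its own library, a ratio that does not depend on the scaling between libraries. PWAR6 amounted to 31.5%, 31.9% and 30.9% of SNHG14 in DJL1 libraries, against 53.4%, 49.5%, 51.4% and 53.0% in CTRL libraries. Every DJL1 library lay below every CTRL library, and the log2 of the DJL1 mean percentage over the CTRL mean percentage was -0.72. PWAR5 ran the other way, at 17.5%, 15.7% and 13.9% of SNHG14 in DJL1 libraries, against 12.01% to 12.67% in CTRL libraries. The groups did not overlap, and the log2 of the ratio of the means was 0.35.

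The groups overlapped in the other rows. IPW amounted to 56.2 ± 4.61% of SNHG14 in DJL1 and 61.2 ± 2.09% in CTRL, and PWARSN to 3.50 ± 0.101% in DJL1 and 3.24 ± 0.235% in CTRL (SD, n = 3 and 4). SNRPN amounted to 2.80 ± 0.794% in DJL1 and 2.90 ± 0.208% in CTRL, and SNURF to 1.03 ± 0.528% in DJL1 and 1.11 ± 0.110% in CTRL. The row SNORD116@, which is not a member, was at 39.8 ± 0.325% of SNHG14 in DJL1 and 39.5 ± 0.396% in CTRL, the narrowest spread of the 7 rows relative to its level. The table gives no coordinates for SNORD116@, so how far its exons overlap those of SNHG14 is not known here.

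**Figure D2:**
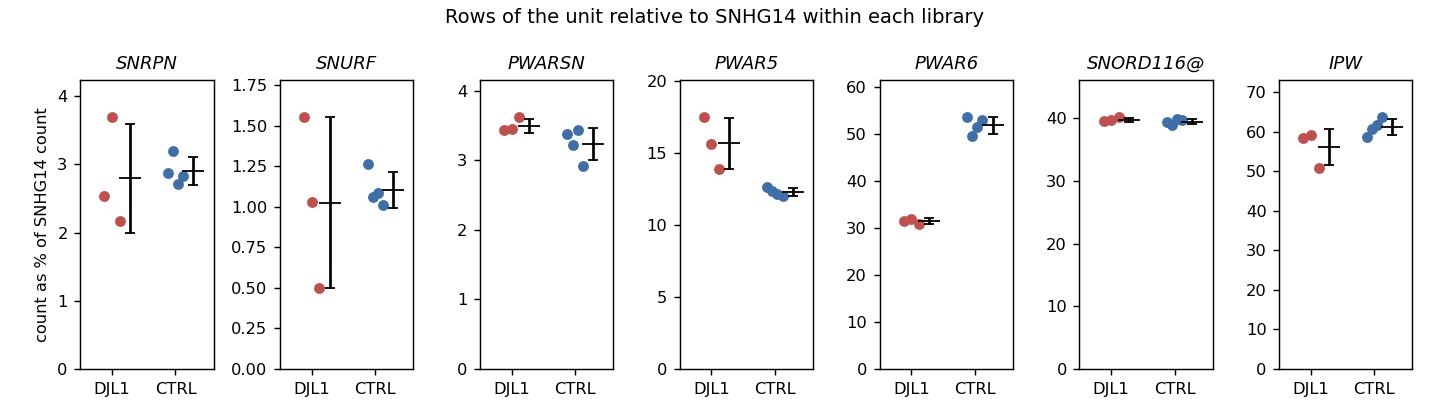
Count of each row as a percentage of the SNHG14 count of the same library (y axis, starting at 0) in DJL1 (3 points, left) and CTRL (4 points, right), with mean and SD. PWAR6 is at 30.9% to 31.9% in DJL1 and 49.5% to 53.4% in CTRL, PWAR5 is higher in all DJL1 libraries, and the groups overlap in the other 5 panels.

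NDN and MAGEL2 encode proteins of the type II MAGE family. NDN (necdin) is a growth suppressor of postmitotic neurons, and MAGEL2 works with the ubiquitin ligase TRIM27 on endosomes. NDN was at 30.4, 33.7 and 33.8 CPM in DJL1 libraries, against 24.2, 25.6, 25.2 and 24.6 CPM in CTRL libraries. All DJL1 libraries lay above all CTRL libraries, with a log2 fold change of 0.39 ± 0.06 (SE). MAGEL2 was at 18.6, 17.3 and 18.9 CPM in DJL1 libraries, against 16.8, 16.3, 15.5 and 15.4 CPM in CTRL libraries.

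The MAGEL2 groups did not overlap either, but the lowest DJL1 library and the highest CTRL library were close. The log2 fold change was 0.19 ± 0.07 (SE). Neither gene shares an exon base with another gene in GENCODE release 29.

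Of 11 neuron markers 10 were called higher in DJL1, beside 27.0% of all tested genes. The summed level of the 11 was 1275 to 1385 CPM in DJL1 and 758 to 779 CPM in CTRL. NEFM, a neurofilament subunit, averaged 207 ± 21.1 CPM in DJL1 and 62.3 ± 3.69 CPM in CTRL, and NEFL, another subunit, averaged 361 ± 23.8 CPM in DJL1 and 154 ± 3.42 CPM in CTRL (SD, n = 3 and 4). No marker of the list was at 0 in any library. Of 10 fibroblast or feeder cell markers 8 were tested and 6 were called higher in DJL1, beside 27.0% of all tested genes. The 8 had a sum of 1075 to 1186 CPM in DJL1 and 763.5 to 785 CPM in CTRL. Of the untested pair, LUM had 3 to 6 counts in DJL1 libraries and 0 to 6 in CTRL libraries, and DCN had 0 to 6 in DJL1 and 0 to 1 in CTRL. The part of these markers in the NDN and MAGEL2 values was not tested.

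UBE3A encodes the ubiquitin ligase E6-AP, whose maternal loss causes Angelman syndrome. It was at 93.7, 87.7 and 92.1 CPM in DJL1 libraries, against 93.5, 91.9, 94.2 and 93.8 CPM in CTRL libraries. The groups overlapped, and the log2 fold change was -0.03 ± 0.04 (SE), the one member of 10 that was not called. SNHG14 and UBE3A overlap on opposite strands, with 1.55% of UBE3A exon bases in SNHG14 exons. The library kit keeps the strand but the strand setting of the counting is not given in the sources used here, so reads of the 2 genes in those bases may not be told apart.

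In the authors' deposited table, whose header does not state the direction of its log2 fold changes, all 10 members had the same sign as here. It gave -1.34 for PWAR6, -0.75 for IPW, -0.63 for SNHG14 and -0.73 for SNRPN. For SNURF the authors' deposited table gave -0.86, for NDN 0.40, for MAGEL2 0.21 and for UBE3A -0.02.

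Levels of different genes were compared per kilobase of exon, from the union of exons in GENCODE release 29, for the 9 members with a length there. For IPW the length is that of the single transcript linked to its RefSeq RNA. On this scale IPW was highest, with 35.7 ± 3.58 CPM per kilobase in DJL1 and 60.7 ± 1.43 in CTRL (SD, n = 3 and 4). NDN came next in DJL1 with 16.9 ± 0.988 CPM per kilobase, ahead of PWAR6 with 8.98 ± 0.704. In CTRL these 2 stood the other way round, NDN at 12.9 ± 0.320 and PWAR6 at 23.1 ± 0.632 CPM per kilobase.

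Then came UBE3A with 7.11 ± 0.243 CPM per kilobase in DJL1 and 7.29 ± 0.0807 in CTRL, and PWAR5 with 6.52 ± 1.08 in DJL1 and 7.95 ± 0.304 in CTRL. Their libraries overlapped in DJL1, whereas in CTRL all of PWAR5 lay above all of UBE3A. MAGEL2 was above SNHG14 in DJL1 (4.24 ± 0.199 and 3.11 ± 0.271 CPM per kilobase) and below it in CTRL (3.71 ± 0.153 and 4.85 ± 0.0898). SNURF and SNRPN were lowest in both groups and their libraries overlapped, SNURF with 1.16 ± 0.654 CPM per kilobase in DJL1 and 1.94 ± 0.209 in CTRL, and SNRPN with 1.06 ± 0.213 in DJL1 and 1.75 ± 0.150 in CTRL.

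A union of exons also counts exons that these cells may not use, and their use was not tested. It came to 42459 bases for SNHG14 and 4319 for MAGEL2, so the order of such genes depends on the annotation. The lengths are also uncertain where exons are shared, since 58.3% of the IPW bases used are also SNHG14 exon. Divided by unshared exon bases alone, SNURF was at 3.78 ± 2.13 CPM per kilobase in DJL1 and 6.30 ± 0.680 in CTRL, and SNHG14 at 3.49 ± 0.304 in DJL1 and 5.44 ± 0.101 in CTRL, so that the SNURF mean was above that of SNHG14 in both groups, with overlapping libraries in DJL1. On the same scale IPW was at 85.6 ± 8.59 in DJL1 and 145 ± 3.43 in CTRL.

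**Figure D3:**
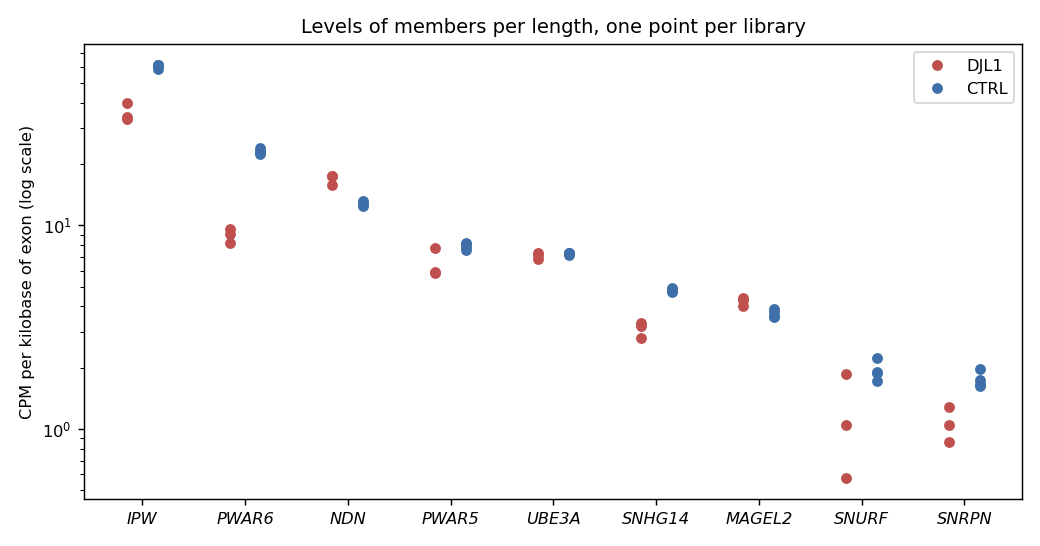
Level of 9 members in CPM per kilobase of exon on a log axis, with 1 point for each library, DJL1 left of CTRL, in the order of the CTRL means. IPW is highest in both groups, PWAR6 is above NDN in CTRL and below it in DJL1, and the UBE3A points of both groups lie close together.

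Along the chromosome, 176 rows of the table lie from NIPA1 to HERC2 and 38 of them were tested. Of the 11 tested rows within the SNHG14 span, which include 7 members, 10 were called lower in DJL1, beside 25.1% of all tested genes, and the pseudogene RPL5P1 was not called, with a log2 fold change of 0.42 ± 0.20 (SE). The snoRNA cluster rows SNORD116@ and SNORD115@ have no coordinates here and are in none of these counts. SNORD116@ was called lower and SNORD115@ higher, with log2 fold changes of -0.63 ± 0.05 and 0.99 ± 0.37 (SE). Of the 27 tested rows outside the span 5 were called lower and 8 higher, beside 25.1% and 27.0% of all tested genes. The 8 include MKRN3, which passed the filter on low counts through the DJL1 libraries alone. The span was drawn with the members' results known, so the difference between inside and outside has no test.

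**Figure D4:**
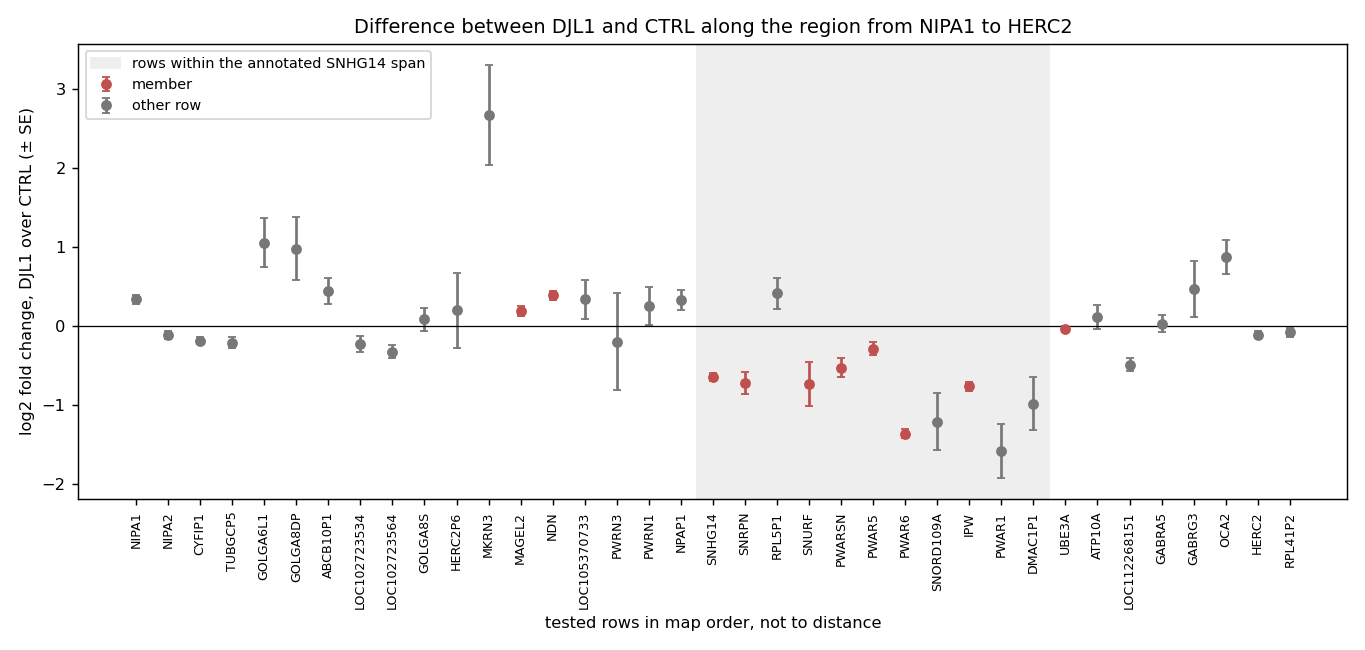
Log2 fold change of DJL1 over CTRL with its SE (y axis) for the tested rows from NIPA1 to HERC2 in map order, not to distance and with 1 row not drawn, with members in red, other rows in grey and the rows inside SNHG14 shaded. Within the shading all rows but RPL5P1 lie below 0, PWAR1 lowest at -1.59. The cluster rows SNORD116@ and SNORD115@ have no coordinates here and are not placed on this map. MKRN3 passed the filter on low counts through DJL1 alone, so its point rests on few CTRL counts.

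Other rows of the region came from a list of 8 named transcripts and 85 snoRNAs. Of these 93 rows, 81 were at 0 in every library and 8 were tested, of which 3 were called lower and 3 higher in DJL1, again beside 25.1% and 27.0%. The 3 called higher include MKRN3, which passed the filter on low counts through the DJL1 libraries alone, so its call is not read as a result. A count of 0 allows a level of up to 0.0783 to 0.0856 CPM in the DJL1 libraries and 0.0395 to 0.0483 CPM in the CTRL libraries, the floor being 3 counts. The median log2 fold change of the 8, MKRN3 included, was 0.03, beside 0.01 over all tested genes.

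SNORD116@, the row for the SNORD116 snoRNA cluster, was at 55.8, 47.3 and 54.5 CPM in DJL1 libraries, against 81.7, 81.7, 81.9 and 79.8 CPM in CTRL libraries. It fell with a log2 fold change of -0.63 ± 0.05 (SE, edgeR adjusted p = 1.2e-07), and the groups did not overlap. The libraries were selected for poly(A) RNA, which mature snoRNAs lack, and 80 of the 85 snoRNA rows were at 0 throughout. SNORD116-30 had 0 to 3 counts in DJL1 libraries and 2 to 7 in CTRL libraries.

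SNORD109A, the snoRNA printed above, had 14, 6 and 24 counts in DJL1 libraries, against 60, 73, 47 and 66 counts in CTRL libraries. It fell in DJL1 with a log2 fold change of -1.21 ± 0.36 (SE, edgeR adjusted p = 0.0112). PWAR1, a noncoding RNA downstream of IPW, also fell, with 0.288 ± 0.0703 CPM in DJL1 and 0.874 ± 0.192 CPM in CTRL (SD, n = 3 and 4), a log2 fold change of -1.59 ± 0.34 (SE, edgeR adjusted p = 0.0011). DMAC1P1, a pseudogene inside the span that was named after its values were seen, had 0.392 ± 0.138 CPM in DJL1 and 0.776 ± 0.133 CPM in CTRL.

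Among the rows called higher, MKRN3, an intronless imprinted gene known as a brake on puberty, had 7, 18 and 13 counts in DJL1 libraries, against 1, 5, 4 and 4 counts in CTRL libraries. Every DJL1 count lay above every CTRL count, which is a description only, since MKRN3 passed the filter on low counts through the DJL1 libraries alone. For the same reason no fold is given. MKRN3 was not tested with thinned counts, the stricter filter, the replicate block or any 1 CTRL library left out. NPAP1, another intronless gene of the region, averaged 5.01 ± 0.615 CPM in DJL1 and 3.98 ± 0.253 CPM in CTRL, a log2 fold change of 0.33 ± 0.13 (SE, edgeR adjusted p = 0.0376). That call was lost without DJL1 replicate 2 (log2 fold change 0.21) and without CTRL replicate 1, 3 or 4, with an edgeR adjusted p of 0.0662 to 0.176. The NPAP1 call was also lost with no filter, thinned counts, a threshold of 0.01, the replicate block and a variance for each group.

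SNORD115@, the row for the snoRNA cluster next to UBE3A, averaged 0.647 ± 0.199 CPM in DJL1 and 0.323 ± 0.0538 CPM in CTRL, a log2 fold change of 0.99 ± 0.37 (SE, edgeR adjusted p = 0.0369). The call was lost without any 1 of the 4 CTRL libraries and without DJL1 replicate 1 or 2, with an edgeR adjusted p of 0.0522 to 0.152. The SNORD115@ call was also lost with no filter, thinned counts, a threshold of 0.01, the replicate block and a variance for each group. PWRN1, a noncoding RNA upstream of SNRPN, averaged 1.17 ± 0.199 CPM in DJL1 and 0.979 ± 0.158 CPM in CTRL and was not called, with overlapping groups.

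Of 10 genes that flank the imprinted part, 3 were called lower and 2 higher in DJL1, beside 25.1% and 27.0% of all tested genes, with a median log2 fold change of -0.02 beside 0.01. NIPA1, a magnesium transporter, rose to 48.9 ± 4.98 CPM in DJL1, against 38.7 ± 0.922 CPM in CTRL. OCA2, a melanosome transporter, rose to 2.86 ± 0.601 CPM in DJL1, against 1.56 ± 0.366 CPM in CTRL. CYFIP1, a regulator of actin and translation, fell to 109 ± 5.98 CPM in DJL1, against 124 ± 0.838 CPM in CTRL.

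TUBGCP5, a part of the gamma-tubulin complex, had a log2 fold change of -0.21 ± 0.07 (SE), and its call was lost without DJL1 replicate 1 or 2 or CTRL replicate 2, with an edgeR adjusted p of 0.059 to 0.0669. HERC2, a ubiquitin ligase that binds UBE3A, had -0.11 ± 0.04 (SE), and its call was lost without CTRL replicate 2, 3 or 4, with an edgeR adjusted p of 0.0673 to 0.114. The HERC2 call was also lost with upper quartile factors, library size alone, the stricter filter, thinned counts, the replicate block and a variance for each group. The transporter genes NIPA2 and ATP10A and the GABA receptor gene GABRA5 were not called, with log2 fold changes of -0.12 to 0.11. Without DJL1 replicate 3, NIPA2 was called lower, with a log2 fold change of -0.19 and an edgeR adjusted p of 0.00316.

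Lists of genes that work with the members' proteins were set beside them, each with its count of calls by edgeR. Over all tested genes 25.1% were called lower and 27.0% higher, or 52.0% in all. The Sm core proteins form the ring of the spliceosomal RNPs that SmN joins. The RNA of all 7 of their genes fell in DJL1, with a median log2 fold change of -0.35, and protein was not measured. SNRPB, the paralog whose protein SmN resembles, fell to 269 ± 9.68 CPM in DJL1, against 321 ± 4.48 CPM in CTRL (SD, n = 3 and 4). SNRPG fell to 31.2 ± 4.02 CPM in DJL1, against 56.8 ± 1.97 CPM in CTRL. SNRPB and SNRPN are close in sequence, and how reads fitting both were counted is not given in the sources used here.

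Of 11 partners of MAGEL2 (TRIM27, USP7, the WASH complex and retromer) 4 fell and 2 rose in DJL1, with a median log2 fold change of -0.09. These 6 calls of 11 are near the 52.0% of all tested genes and are no result about the list. TRIM27, the ubiquitin ligase of the complex, fell to 353 ± 30.9 CPM in DJL1, against 490.3 ± 14.1 CPM in CTRL. WASHC1, the subunit that activates the Arp2/3 complex, fell to 152 ± 4.22 CPM in DJL1, against 244 ± 4.91 CPM in CTRL. VPS29 of the retromer (-0.45 ± 0.05) and WASHC5 of the WASH complex (-0.22 ± 0.04) also fell on the log2 scale (SE). WASHC2A (0.46 ± 0.04) and WASHC2C (0.47 ± 0.04) rose, but they are near-identical copies that share reads, and WASHC1 has close copies as well.

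Of the 9 other type II MAGE genes 3 rose in DJL1, beside 27.0% of all tested genes, and 6 were not called. The median log2 fold change was 0.05. MAGEE2 rose to 2.09 ± 0.331 CPM in DJL1, against 0.783 ± 0.179 CPM in CTRL, and MAGEE1 rose to 18.3 ± 1.51 CPM in DJL1, against 12.9 ± 0.354 CPM in CTRL. MAGED1 had a log2 fold change of 0.13 ± 0.04 (SE), and its call was lost without DJL1 replicate 3, with a log2 fold change of 0.08 and an edgeR adjusted p of 0.0929. The MAGED1 call was also lost with no filter and at a threshold of 0.01.

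Of 14 regulators of imprints or of histone and DNA methylation, 4 rose and 4 fell in DJL1, with a median log2 fold change of -0.05. These 8 calls of 14 are also near the 52.0% of all tested genes. ZFP57, a zinc finger protein that keeps DNA methylation at imprinting centres, rose to 60.2 ± 7.48 CPM in DJL1, against 26.3 ± 3.57 CPM in CTRL. ATF7IP, a partner of the histone methyltransferase SETDB1, rose to 147 ± 7.52 CPM in DJL1, against 123 ± 1.36 CPM in CTRL, and EZH2, the histone H3 lysine 27 methyltransferase, rose to 98.0 ± 4.26 CPM in DJL1, against 84.2 ± 1.27 CPM in CTRL.

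UHRF1, which guides maintenance DNA methylation, fell to 79.0 ± 2.40 CPM in DJL1, against 104 ± 0.657 CPM in CTRL. The lysine methyltransferase EHMT1 (-0.34 ± 0.06) and the lysine demethylase KDM1A (-0.24 ± 0.04) also fell on the log2 scale (SE). ZNF274, a zinc finger protein known to bind the SNORD116 cluster, and SETDB1 were named for that role after their values were seen. ZNF274 averaged 47.2 ± 0.714 CPM in DJL1 and 46.1 ± 1.27 CPM in CTRL, and SETDB1 averaged 51.2 ± 1.25 CPM in DJL1 and 53.7 ± 1.73 CPM in CTRL, and neither was called.

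**Figure D5:**
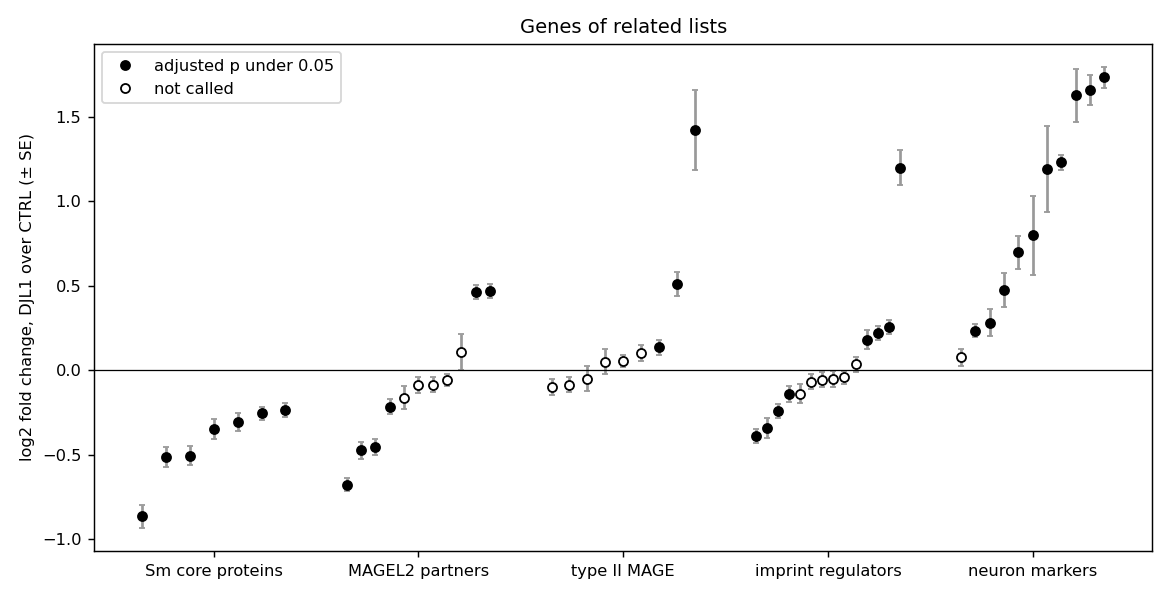
Log2 fold change of DJL1 over CTRL with its SE (y axis) for each gene of 5 lists, sorted within a list, with filled points for genes called at an adjusted p under 0.05 by edgeR and open points for the others. All 7 Sm core genes lie below 0. Of 11 neuron markers 10 are called above 0, beside 27.0% of all tested genes. The other 3 lists hold genes on both sides of 0.

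The genes whose log2 CPM most followed SNHG14 over the 7 libraries, among 13180 genes averaging 5 CPM or more, were LOC100288069, SLC44A1, KHSRP, SNORD116@ and PSME3IP1, with Pearson r of 0.9993 to 0.9996. For SNRPN they were SOCS7, PLXNA1, SYNE4, PPIL3 and RFC5, with r of 0.9933 to 0.9946. The libraries fall into 2 groups, so these values largely restate the difference between DJL1 and CTRL, and they are a description with no p. Of these 10 genes SNORD116@ was the one from the Prader-Willi region.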

How the data were processed

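RNA of 3 DJL1 and 4 CTRL libraries was selected for poly(A) and made into directional libraries, per the labels' protocols. The authors deposited raw counts per gene symbol, used here unchanged, and a table of log2 fold changes, quoted only where named. The submitters' processing notes name featureCounts (Subread 1.5.0), HISAT2 2.2.1 and Trim Galore 0.4.0, with the build GRCh38. For the counting, the strand setting and the handling of reads in several genes or places were not given in the sources used here. The deposited table of log values, with no stated base, was not used. The labels mention cell sorting and the design text does not, so whether cells were sorted is unclear.

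Rows passing edgeR's filterByExpr (minimum count 10, minimum total 15) were scaled by TMM factors. The difference of DJL1 from CTRL was tested 2-sided in edgeR's quasi-likelihood framework (robust fit) with Benjamini-Hochberg adjustment at 0.05 over 26062 rows. Standard errors are log2 fold changes divided by the root of F. The script was tested on simulated data. The labels do not say whether replicates are separate cultures, so p-values cover only the spread among these 7 samples, which may be technical. CPM per kilobase used exon lengths of GENCODE release 29. Intervals and floors cover counting error only.

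The members and the gene lists were chosen with earlier results of these data known. Named genes were the members, up to 6 called genes a list, by smallest adjusted p, region or flanking genes averaging 1 CPM or more in a group, and the 5 genes most like SNHG14 and SNRPN. Results of 1 flanking gene are not reported here. Genes outside this rule are said to be so or stand for a count of a list.

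The alternatives were other tools (limma-voom and DESeq2), other scalings (library size alone, upper quartile and relative log expression factors), other filters (none, or 1 CPM in 3 libraries), thinning all libraries to the shallowest, a threshold of 0.01, the replicate number as a block and each library left out in turn. The replicate block used replicates 1 to 3 of each group, so CTRL replicate 4 was left out. Voom with a variance for each group and the sum of SNRPN and SNURF were chosen after seeing the data. Python 3.11.15 and R 4.3.3 were used with DESeq2 1.42.0, limma 3.58.1 and edgeR 4.0.16.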

Additional observations from a re-analysis of the deposited data

Results flagged for a closer look

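In the 4 CTRL libraries, 65 named genes were examined for a library far from the others, and 4 were found. Chance gives such a library in about 1 of 20 groups. DJL1, with 3 libraries, was not examined.

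IPW was at 121.3 CPM in CTRL replicate 1, against 127.0 to 127.6 CPM in the other CTRL libraries, which is still above the 69.1 to 82.6 CPM of the DJL1 libraries. SNORD116@ was at 79.79 CPM in CTRL replicate 4, against 81.71 to 81.88 CPM in the others. SNORD109A was at 0.756 CPM in CTRL replicate 3, against 0.9601 to 0.9994 CPM in the others. MKRN3 was at 0.01605 CPM, a single count, in CTRL replicate 1, against 0.06057 to 0.06576 CPM in the others, which are 4 to 5 counts.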

How the results depend on the processing

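The members were chosen on these same libraries, so their values under the alternatives describe the processing and lend no support. Over 18 alternatives the log2 fold change ran from -1.42 to -1.31 for PWAR6, -0.86 to -0.72 for IPW, -0.70 to -0.58 for SNHG14, 0.35 to 0.43 for NDN, 0.16 to 0.22 for MAGEL2 and -1.27 to -0.41 for SNURF. Members called higher were 1, not 2, with no filter, at an adjusted p of 0.01, with the replicate block and with a variance for each group. With each library left out they were 1 to 2. Members called lower were 5, not 7, at an adjusted p of 0.01 and 6 to 7 with each library left out. The SNURF call was kept in 11 of 18 alternatives. It was lost at an adjusted p of 0.01, without any 1 CTRL library and without DJL1 replicate 2 or 3. The MAGEL2 call was kept in 10 of 18 alternatives and the PWAR5 call in 17 of 18. The other rows of the region called were 2, not 6, under the stricter filter, 3 with thinned counts, at an adjusted p of 0.01 and with the replicate block, and 3 to 6 with each library left out. Flanking genes called were 3, not 5, at an adjusted p of 0.01 and 3 to 7 with each library left out, and type II MAGE genes called were 5, not 3, under the stricter filter. ATP10A, not called, had log2 fold changes of -0.047 (without DJL1 replicate 1) to 0.17 with each library left out. GABRA5, not called, had -0.001 with no filter, -0.0051 without CTRL replicate 1 and -0.061 without DJL1 replicate 2, and up to 0.10 with another library left out. Over the 55 other named genes, 932 of 979 values kept direction and call, 40 lost the call, 3 gained one and 4 changed sign. MKRN3 passed the filter in 11 alternatives only. The cause of these shifts was not tested.

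No pairing by replicate number was seen. Deviations of log2 CPM from the group mean correlated at -0.0385 to -0.0043 between same-numbered DJL1 and CTRL libraries over 3 pairs. Of 3 CTRL libraries 0 matched best with their own number. The deviations within a group offset each other, so these correlations are not independent and cannot exclude a weak pairing. With the replicate block, 5995 genes were called higher and 5573 lower over all tested genes, against 7029 and 6530 without it. Depth limits the rows near the floor of 3 counts, such as MKRN3 in CTRL and most snoRNA rows. PWAR1, also low, had 8 to 14 counts in DJL1 libraries and 50 to 70 in CTRL libraries.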
